A study of Mus musculus with 9 samples.

Results

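The 84 genes described here were the zinc finger genes of the Zfp series that bone marrow-derived macrophages carried at a sizeable signal. They were chosen by symbol and level. Every gene whose array annotation gave a symbol of Zfp followed by a digit was taken, except Zfp36, Zfp36l1 and Zfp36l2, which encode messenger RNA decay factors of another zinc finger class. Each gene was represented by its brightest probe set, and it was kept where the mean log2 signal over all arrays was 8 or more. Of 18193 genes with a probe set of their own, 333 were such Zfp genes, 84 of them lay at 8 or more and 249 below it. In all, 7014 genes lay at 8 or more. The measured level chose the members, so their levels are given as a description. The differences between groups were not used directly to choose them, but the mean took in the treated arrays. Zfp513 had a group mean of 8 or more only with TNC + vehicle (8.30), and Zfp267 only with TNC + TLR4i (8.18). The TNC + vehicle mean alone was below 8 in Zfp219, Zfp280d, Zfp597, Zfp646, Zfp677, Zfp729b, Zfp758, Zfp839 and Zfp84. These were kept through the groups in which they were higher. For all 11 of these genes the level favours the direction given below.

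The macrophages were grown from marrow of BALB/c mice aged 8 to 10 weeks for 7 days in macrophage colony-stimulating factor and kept overnight in 1% serum. Untreated cells, for which the labels name no addition, gave 3 arrays. TNC + vehicle cells had 0.1% DMSO for 1 h and then tenascin C (TNC, a glycoprotein of the extracellular matrix) at 2 µg/ml for 6 h, also on 3 arrays. TNC + TLR4i cells had the Toll-like receptor 4 (TLR4) inhibitor TAK-242 at 3 µM for 1 h before the same TNC, again on 3 arrays. There was no group with vehicle or inhibitor alone, so the effects of TNC and vehicle cannot be told apart in the contrast with untreated cells. By their titles the arrays are biological replicates, with nothing on whether each stands for its own mouse, so p-values measure only the spread between these samples. Values were log2 signals after robust multiarray averaging (RMA), where a difference of 1 is a doubling. The array medians lay between 6.72 and 6.74.

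A zinc finger is a short fold held by a zinc ion. Proteins with arrays of C2H2 fingers, the commonest kind, read DNA sequence, one finger after the next, and in mice many genes for them carry the symbol Zfp and a number. A large share of these proteins carry a KRAB domain, through which they recruit the corepressor Trim28 and, with it, the histone methyltransferase Setdb1, and they are known for silencing retroelements and imprinted genes. The symbol marks a structure and not one function: others bind promoters as activators, carry a BTB or SCAN domain, or act on RNA, ribosomes or the spindle. In macrophages, TLR4 signals through NF-kB and interferon regulatory factors, and widespread changes in transcription follow.

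Promoter windows are shown for 4 of the 5 members that changed by at least 1.5-fold, all but Zfp703, since the comparisons below turn on them. The windows hold the 250 bases before an annotated transcription start (RefSeq, build GRCm38.p6), written 5′ to 3′ on the strand of the gene, with motif matches in capitals. Both strands were searched for the GC box GGGCGG, the cAMP response element TGACGTCA, the AP-1 site TGANTCA, the STAT site TTCNNNGAA, an NF-kB site and an interferon response element. The Zfp800 window, before the more downstream of its 2 annotated starts, lay at chr6:28261925-28262174 on the minus strand. The Zfp131 window, before the more upstream of 2 starts, lay at chr13:119790733-119790982 (minus strand), the Zfp266 window at chr9:20521420-20521669 (minus strand) and the Zfp622 window at chr15:25984116-25984365 (plus strand).
Zfp800: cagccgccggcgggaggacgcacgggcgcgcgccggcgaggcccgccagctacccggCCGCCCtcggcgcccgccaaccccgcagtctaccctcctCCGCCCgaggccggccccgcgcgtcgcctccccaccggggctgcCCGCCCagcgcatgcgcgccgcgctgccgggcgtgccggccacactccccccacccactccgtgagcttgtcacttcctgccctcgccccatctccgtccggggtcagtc
Zfp131: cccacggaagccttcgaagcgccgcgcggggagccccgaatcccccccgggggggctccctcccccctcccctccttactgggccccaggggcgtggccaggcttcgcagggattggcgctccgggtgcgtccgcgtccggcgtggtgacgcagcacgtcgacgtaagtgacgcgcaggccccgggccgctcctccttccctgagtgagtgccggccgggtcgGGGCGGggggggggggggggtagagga
Zfp266: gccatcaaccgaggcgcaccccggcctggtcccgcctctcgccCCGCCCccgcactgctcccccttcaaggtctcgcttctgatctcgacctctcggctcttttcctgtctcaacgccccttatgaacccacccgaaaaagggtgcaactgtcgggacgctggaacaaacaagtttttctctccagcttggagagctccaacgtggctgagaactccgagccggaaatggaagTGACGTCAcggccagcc
Zfp622: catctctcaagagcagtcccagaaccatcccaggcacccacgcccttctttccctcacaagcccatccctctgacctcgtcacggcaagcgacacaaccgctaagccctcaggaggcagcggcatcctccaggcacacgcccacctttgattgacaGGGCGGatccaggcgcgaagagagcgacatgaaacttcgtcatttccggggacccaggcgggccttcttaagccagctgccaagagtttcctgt
All 4 windows held a GC box, the short GC-rich element bound by Sp-family factors. Zfp800 had 3, and its window was 80% G and C with 38 CG pairs, against 61.2% with 19 pairs for Zfp266. The Zfp266 window also held a cAMP response element at positions -17 to -10 from the start. The other start of Zfp800 had a window with 46.4% G and C and 9 CG pairs. None of these windows held the other 4 motifs searched, which says only that those letters are not in them.

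RefSeq windows were found for 70 of the 84 genes, with 88 starts. A GC box stood in 59.1% of these 88 windows and in 32.7% of all 32851 windows of the same length. All windows cover 27025 genes whatever their signal, so these shares were not matched to the level of the members. The NF-kB site stood in 2.27% of members' windows (Zfp617 and Zfp84) and in 0.356% of all windows, and the cAMP response element in 3.41% (Zfp266, Zfp335 and Zfp367) and 1.55%. The AP-1 site stood in 2.27% (Zfp652 and Zfp871) and 6.75%, the STAT site in 7.95% and 7.02%, and the interferon response element in 0 of 88 windows and 2.98% of all. Of the 70 genes, 28 fell with TNC by adjusted p in the values below, Zfp617 and Zfp84 among them. A link with the NF-kB match was not tested. A match is a run of letters and not a binding site.

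The first comparison asked how TNC changed the signal of these genes. Zfp800 and Zfp131 rose, Zfp703 and Zfp266 fell, and each of the 4 changed by at least 1.5-fold. Most of the other members differed by less, and 67 of the 84 lay lower with TNC. In bulk samples such as these, fewer cells of a type and less RNA per cell cannot be told apart.

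Zfp800, a C2H2 protein described as a repressor in gut endocrine differentiation, had signals of 8.76, 8.63 and 8.61 in untreated arrays, 9.85, 10.23 and 10.00 in TNC + vehicle arrays, and 8.67, 8.62 and 8.55 in TNC + TLR4i arrays. The TNC + vehicle arrays stood above the other 6 with a wide gap, and the untreated and TNC + TLR4i arrays overlapped. The rise was 2.57-fold (log2 difference 1.36 ± 0.09 SE; limma adjusted p = 8.41e-07). All 7 probe sets of the gene rose by at least 1.5-fold, with log2 differences from 0.59 to 1.37, and all 7 fell again with TLR4i, by 0.59 to 1.47.

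Zfp131, which carries a BTB domain beside its fingers, had signals of 9.54, 9.54 and 9.65 in untreated arrays, 10.45, 10.63 and 10.59 with TNC + vehicle, and 9.65, 9.52 and 9.50 with TNC + TLR4i. Again the TNC + vehicle arrays lay above all the others, and the remaining groups overlapped. The rise was 1.98-fold (0.98 ± 0.07; limma adjusted p = 1.37e-06), and the gene has 1 probe set.

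Zfp703, a nuclear repressor studied in breast cancer, was the member with the largest fall. Its signals were 9.44, 9.34 and 9.27 untreated, 8.39, 8.51 and 8.45 with TNC + vehicle, and 9.34, 9.13 and 9.30 with TNC + TLR4i. The TNC + vehicle arrays lay below the other 6. The fall was 1.86-fold (log2 difference -0.90 ± 0.07; limma adjusted p = 2.55e-06). Its other probe sets, at mean signals of 7.05 and 6.66, differed by 0.09 and -0.11 (limma adjusted p = 0.678 and 0.296), so the fall was seen on 1 of 3 probe sets.

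Zfp266, a KRAB protein described as a barrier to reprogramming of cells to pluripotency, had signals of 8.88, 8.91 and 8.71 untreated, 8.24, 8.14 and 8.07 with TNC + vehicle, and 8.79, 8.90 and 8.91 with TNC + TLR4i. Its TNC + vehicle arrays were the lowest of the 9, and the other groups overlapped. The fall was 1.61-fold (-0.68 ± 0.08; limma adjusted p = 4.76e-05). The other 3 probe sets of Zfp266 also passed the test and fell by 0.42, 0.34 and 0.21 on the log2 scale, none by 1.5-fold. In the RefSeq order of genes Zfp266 lies between Zfp426 and Zfp846.

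**Figure D1:**
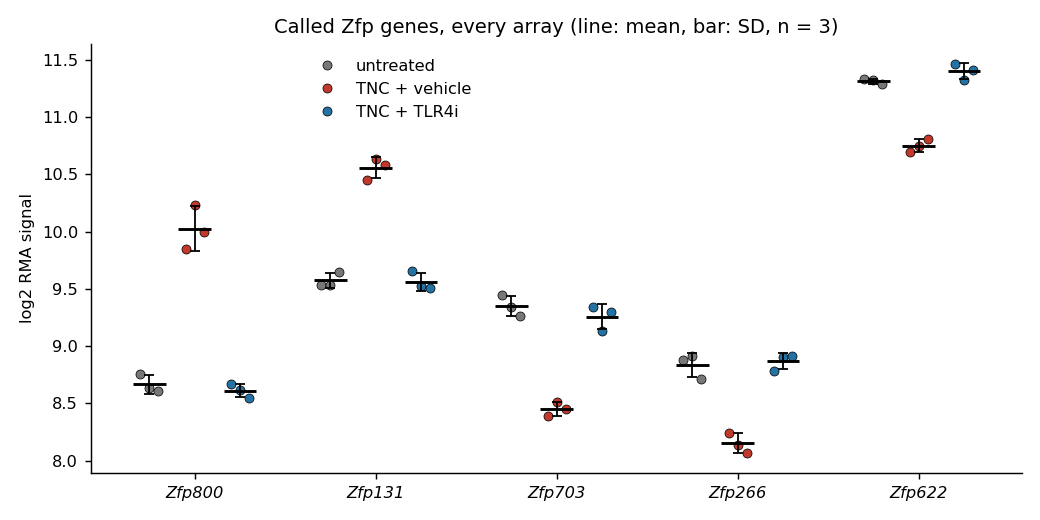
Log2 RMA signal (vertical axis) of the 5 Zfp genes that changed by at least 1.5-fold with TNC or with TLR4i, with each point an array, coloured by group, the wide line the group mean and the bar the SD (n = 3). Zfp800 and Zfp131 are higher in the TNC + vehicle arrays, Zfp703, Zfp266 and Zfp622 are lower there, and in each gene the untreated and TNC + TLR4i arrays lie at similar heights.

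A change counted as called at a limma adjusted p under 0.05 and a size of at least 1.5-fold. By that rule 2 members were higher and 2 lower, 2.38% of the 84 each way, while among the 7014 genes at a signal of 8 or more 7.5% were called higher and 8.6% lower, and among all 18193 genes 3.74% and 4.05%. The called share of the Zfp genes was thus below that of genes at 8 or more in both directions. These shares are not matched for level within that range. Of the members 38 lay between 8 and 8.5 and 6 at 10 or more, beside 1308 and 2285 of the 7014 genes. By adjusted p alone 24.1% of genes between 8 and 8.5 were lower with TNC, and 34% of those at 10 or more. Without the minimum fold, 7 members rose and 33 fell, or 8.33% and 39.3%, beside 20.7% and 29.8% of genes at 8 or more. The members therefore leaned further to the lower side than their background. In 9 members every TNC + vehicle array lay above every untreated array and in 45 every one lay below, against 28.5% and 39.4% of genes at 8 or more (53.6% and 10.7% of members lower and higher).

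The median log2 difference of the 84 genes was -0.16, of genes at 8 or more -0.05 and of all genes 0.01. The median size of the difference, whatever its sign, was 0.21 in the members and 0.22 in genes at 8 or more. After cyclic loess, another scaling of the arrays, the members' median was -0.14 with 62 lower and 22 higher, while that of genes at 8 or more was 0.00073. The lower median was thus seen under both scalings.

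**Figure D2:**
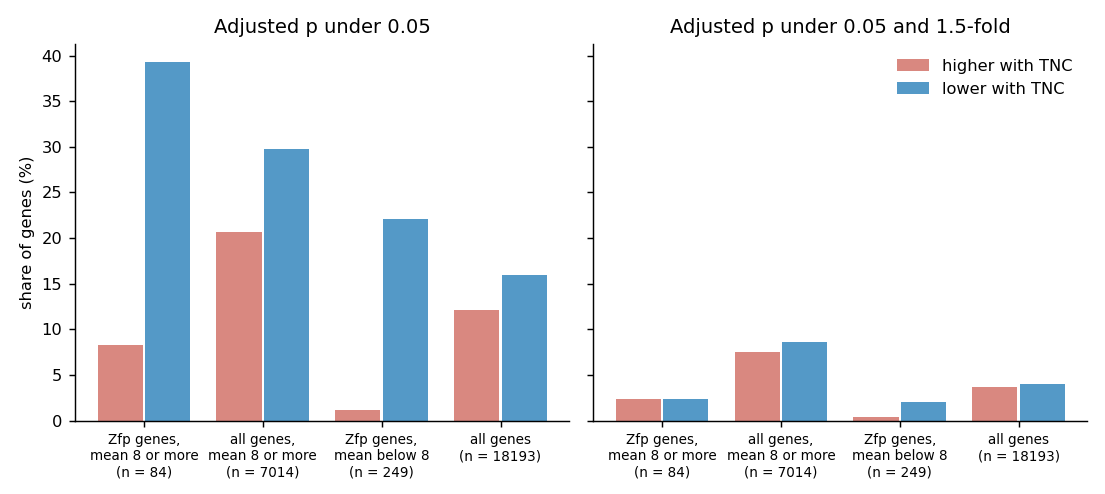
Share of genes in percent (vertical axis) that were higher or lower in TNC + vehicle than in untreated macrophages, by adjusted p alone (left) and with a minimum of 1.5-fold (right), in Zfp genes at a mean of 8 or more, all genes at that level, Zfp genes below it and all genes. By adjusted p alone 39.3% of the 84 Zfp genes were lower and 8.33% higher, and with the minimum fold 2.38% each way.

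The shift was of like size in every TNC + vehicle array. Relative to the untreated mean, the median of the 84 genes was -0.15, -0.16 and -0.16 in the 3 TNC + vehicle arrays, -0.01, -0.0026 and 0.04 in the TNC + TLR4i arrays, and between -0.0028 and 0.0079 in the untreated arrays. For genes at 8 or more the TNC + vehicle arrays lay between -0.06 and -0.05. The actin control, a sign of RNA integrity, moved in the same arrays: the signal of its 3′ probe set minus that of its 5′ probe set was 0.20 to 0.22 with TNC + vehicle, 0.29 to 0.32 untreated and 0.30 to 0.37 with TNC + TLR4i. The same difference for the GAPDH control did not follow that order, at -0.33 to -0.30 with TNC + vehicle, -0.35 to -0.33 untreated and -0.32 to -0.26 with TNC + TLR4i. The part of RNA integrity in the shift was not tested.

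**Figure D3:**
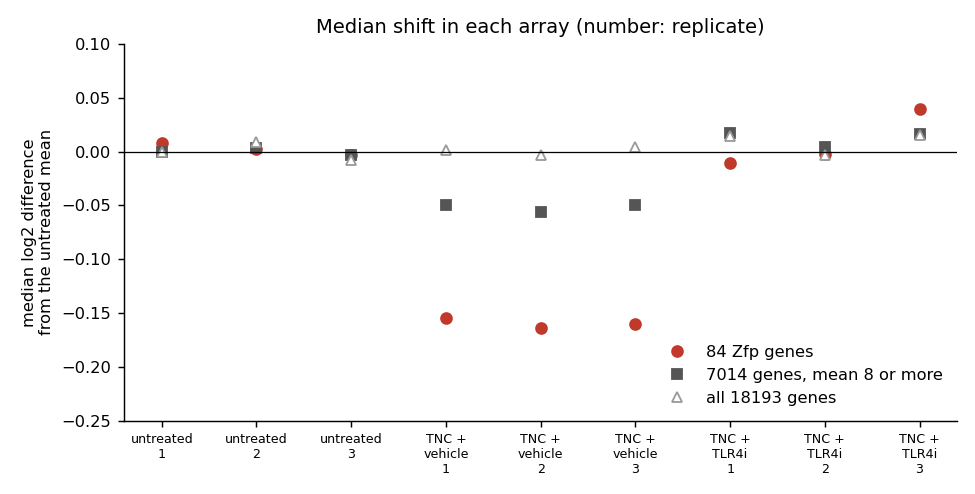
Median log2 difference from the untreated mean (vertical axis) in each of the 9 arrays, for the 84 Zfp genes (circles), the 7014 genes with a mean of 8 or more (squares) and all 18193 genes (triangles). The 84 Zfp genes lie between -0.16 and -0.15 in the TNC + vehicle arrays, below both other sets, and between -0.01 and 0.04 in the other 6 arrays.

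The sum of endothelial markers was also higher in the TNC + vehicle arrays. The log2 signals of 12 such markers summed to 79.0 to 79.4 in untreated arrays, to 89.2 in TNC + vehicle replicate 1 and 81.6 and 81.8 in replicates 2 and 3, and to 78.2 to 78.5 with TNC + TLR4i, and 11 of the 12 had a mean below 8. Without replicate 1, 2 members were called higher and 2 lower with TNC and 31 fell by adjusted p alone. Of the macrophage markers all 9 measured lay at 8 or more, with sums of 111.6 to 111.8 in untreated, 112.5 to 113.1 in TNC + vehicle and 110.9 to 111.5 in TNC + TLR4i arrays. The sums of 4 other lists also did not overlap between the TNC + vehicle arrays and the other 6. NK cell markers summed to 40.7 to 41.4 against 38.3 to 39.2, and mast cell markers to 44.8 to 45.7 against 42.9 to 43.9. The T cell sums were lower, at 52.0 to 53.1 against 53.8 to 54.7, as were the B cell sums, at 52.0 to 52.5 against 52.9 to 53.4. Within these lists the markers did not all move with the sum. With TNC 4 of 7 T cell markers lay above 0 (median 0.06, lowest -2.36), and 3 of 7 B cell markers (median -0.0038, lowest -1.05). Of 6 NK cell markers 3 lay above 0 (highest 2.06), and of 7 mast cell markers all 7 did. The part of these markers in the differences was not tested.

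Besides Zfp800 and Zfp131, the genes that rose were Zfp263 (log2 difference 0.42), a DNA-binding factor with SCAN and KRAB domains, Zfp407 (0.38), Zfp513 (0.32), Zfp275 (0.30) and Zfp207 (0.27), a spindle protein that binds Bub3. Zfp263 had signals of 10.56, 10.40 and 10.45 untreated, 10.90, 11.01 and 10.77 with TNC + vehicle, and 10.30, 10.42 and 10.28 with TNC + TLR4i. Its TNC + vehicle arrays were the 3 highest, and the rise was 1.34-fold (0.42 ± 0.08; limma adjusted p = 0.00199). Zfp513 reached the mean of 8 only through its TNC + vehicle arrays.

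Among the members past the test with TNC, Zfp207 was the one with a further probe set past the test in the other direction. Its brightest probe set read 10.26, 10.16 and 10.23 untreated and 10.51, 10.45 and 10.49 with TNC + vehicle (0.27 ± 0.06; limma adjusted p = 0.0108). Its second brightest, at a mean of 8.30, fell by 0.29 (limma adjusted p = 0.0289), and the other 4 differed by -0.28 to -0.03 and were not past the test. The direction of Zfp207 thus depends on the probe set.

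Of the 33 genes that fell, Zfp809 was the closest to the 1.5-fold limit without reaching it. It is a KRAB protein that represses murine leukaemia retroviruses, exogenous and endogenous. Its signals were 8.91, 8.96 and 8.88 untreated, 8.32, 8.37 and 8.35 with TNC + vehicle, and 8.89, 8.95 and 8.79 with TNC + TLR4i, so the TNC + vehicle arrays were the lowest by a clear gap. The fall was 1.48-fold (-0.57 ± 0.06; limma adjusted p = 4.32e-05). Zfp445, a KRAB repressor at imprinted genes, differed by -0.11 (limma adjusted p = 0.373).

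Zfp622, a factor of late ribosome subunit maturation, was the brightest member, with a mean of 11.15. Its signals were 11.33, 11.32 and 11.29 untreated, 10.70, 10.74 and 10.81 with TNC + vehicle, and 11.46, 11.32 and 11.41 with TNC + TLR4i. The TNC + vehicle arrays lay lowest (1.48-fold; -0.56 ± 0.06; limma adjusted p = 5.35e-05). This probe set is of the _x_at type, which can share probes with other transcripts, and the second brightest of the gene, at 8.60, fell by 0.27 (limma adjusted p = 0.0207).

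Other proteins that act on RNA also differed. Zfp106, an RNA-binding protein needed by motor neurons, read 10.56, 10.57 and 10.62 untreated, 10.10, 10.07 and 10.12 with TNC + vehicle, and 10.50, 10.52 and 10.54 with TNC + TLR4i. The TNC + vehicle arrays were again the lowest, and the fall was 1.40-fold (-0.48 ± 0.06; limma adjusted p = 0.000139). Its other 4 probe sets, at means from 7.97 to 6.11, differed by 0.02, -0.12, 0.05 and 0.01 and were not past the test, the lowest adjusted p being 0.333. Zfp326, a subunit of the DBIRD complex that couples elongation to splicing, fell by 0.29. Among the 7 members of this kind 1 rose and 3 fell, beside 20.7% and 29.8% of genes at 8 or more. The 3 not past the test were the nucleolar Zfp330 (0.08), the collided-ribosome ubiquitin ligase Zfp598 (0.09) and the splicing-linked Zfp830 (-0.02).

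Among the 6 listed repressors and chromatin partners 0 rose by limma, with 0 also at an unadjusted p under 0.05, and Zfp703 and Zfp217 fell. Among genes at 8 or more 20.7% rose and 29.8% fell. Zfp217, which associates with CoREST-type complexes, read 10.06, 9.87 and 9.91 untreated, 9.51, 9.58 and 9.58 with TNC + vehicle, and 9.70, 9.88 and 9.73 with TNC + TLR4i. Its TNC + TLR4i arrays lay between the other groups and overlapped the untreated ones, and the fall with TNC was 1.31-fold (-0.39 ± 0.07; limma adjusted p = 0.00162). Zfp746, a repressor of Ppargc1a, differed by -0.25, Zfp644, a partner of Ehmt1 and Ehmt2, by -0.12, Zfp503, a relative of Zfp703, by -0.08 and the chromatin factor Zfp335 by -0.04, none past the test.

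Of 5 promoter-binding factors Zfp263 rose and Zfp148, which binds GC-rich promoters, fell by 0.24. Its relative Zfp281 differed by 0.16, Zfp384 by -0.11 and Zfp410, an activator of Chd4, by -0.15, and these were not past the test. Among ubiquitin, SUMO and receptor-linked proteins Zfp110, a partner of the p75 neurotrophin receptor, fell by 0.23. The ubiquitin ligase Zfp91, linked to non-canonical NF-kB signalling, differed by -0.14 and the SUMO ligase Zfp451 by -0.19, not past the test. Zfp318, which controls IgD in B cells, fell by 0.28, and the brown fat factor Zfp516 differed by 0.06. In all, 25 members had a listed role, of which 2 rose and 9 fell, and of the 59 others 5 rose and 24 fell, beside 20.7% higher and 29.8% lower of genes at 8 or more. No difference between the groups by role was tested.

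The genes without a listed role that fell are given by the size of the fall. Zfp839, Zfp955a, Zfp362, Zfp90, Zfp120, Zfp871, Zfp715, Zfp740 and Zfp637 fell by 0.55 to 0.42. Zfp53, Zfp677, Zfp367, Zfp597 and Zfp512 fell by 0.38 to 0.34. Zfp770, Zfp646, Zfp574, Zfp946, Zfp617, Zfp46, Zfp764, Zfp280c and Zfp84 fell by 0.29 to 0.21. Of the genes in this paragraph, Zfp839, Zfp677, Zfp597, Zfp646 and Zfp84 reached the mean of 8 only through the groups other than TNC + vehicle. Zfp871 was measured by 3 probe sets, at means of 9.70, 9.56 and 8.87, and all fell, by 0.46, 0.46 and 0.27.

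The brightest probe sets of the other 44 members were not past the test, with log2 differences from -0.25 for Zfp746 to 0.21 for Zfp991. Of these, 34 lay below 0 and 10 above it. Beside those named above, the ones below 0 were Zfp995, Zfp160, Zfp655, Zfp652, Zfp955b, Zfp414, Zfp729b, Zfp292, Zfp277, Zfp212, Zfp24, Zfp322a, Zfp62, Zfp467, Zfp280d, Zfp664, Zfp638, Zfp219, Zfp758, Zfp267, Zfp771, Zfp35, Zfp369 and Zfp560. Those above 0 were, beside Zfp516, Zfp330, Zfp598, Zfp281 and Zfp991, the genes Zfp639, Zfp710, Zfp236, Zfp385a and Zfp628.

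In 6 of these 44 members a dimmer probe set was past the limma adjusted p with TNC, in the direction of the brightest. That of Zfp652, at a mean of 7.15, fell by 0.64 (adjusted p = 6.53e-05), at least 1.5-fold, and was 0.585 higher with TLR4i than with TNC alone (adjusted p = 0.000136). Dimmer probe sets of Zfp955b, Zfp451 and Zfp560 fell by 0.30, 0.31 and 0.22, and a pair of Zfp644 probe sets fell by 0.29 and 0.36. That of Zfp991 rose by 0.44 (adjusted p = 0.00176). The counts of members use the brightest probe set only.

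**Figure D4:**
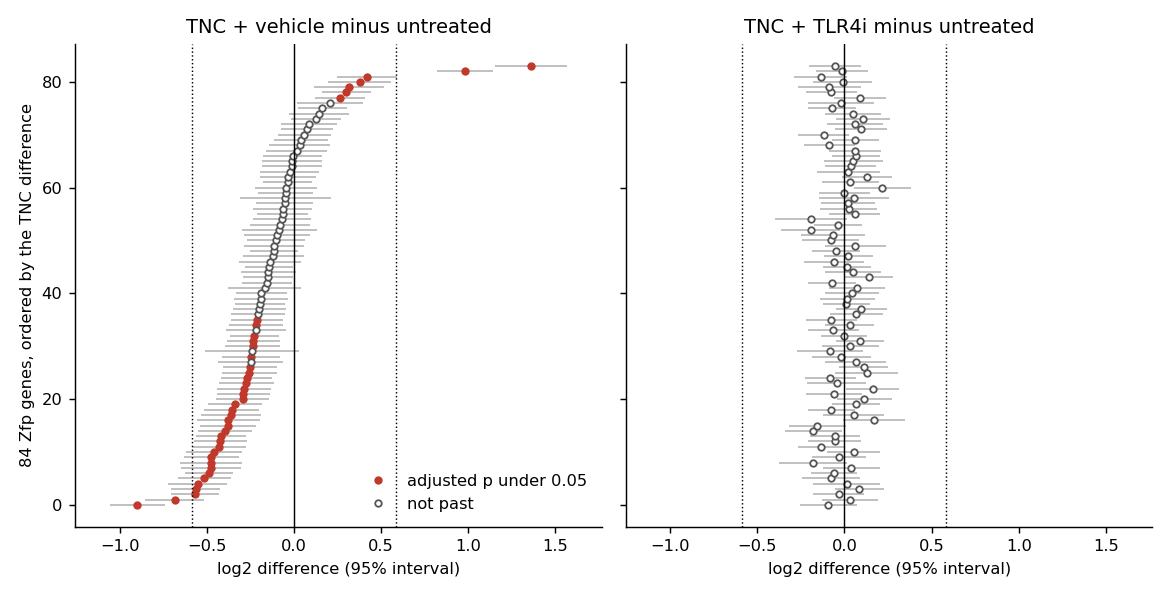
Log2 difference (horizontal axis) with its 95% interval for each of the 84 Zfp genes, ordered by the difference of TNC + vehicle from untreated (left), with the difference of TNC + TLR4i from untreated in the same order (right). Filled points passed an adjusted p of 0.05 and dotted lines mark 1.5-fold. On the left 33 genes are past the test on the lower side and 7 on the higher side, and on the right 0 are.

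The second comparison asked what the TLR4 inhibitor changed in TNC-treated cells. It shares the TNC + vehicle arrays with the first, so a high or low value in those arrays enters both with opposite sign, and the values are given beside each other without a measure of their likeness. Zfp703, Zfp266 and Zfp622 were higher with TLR4i than with TNC alone, and Zfp800 and Zfp131 lower.

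From the array values given above, Zfp800 fell 2.66-fold (log2 difference -1.41 ± 0.09 SE; limma adjusted p = 3.15e-07) and Zfp131 fell 2.00-fold (-0.998 ± 0.08; 1.07e-06). Zfp703 rose 1.75-fold (0.80 ± 0.08; 7.3e-06), Zfp266 rose 1.64-fold (0.72 ± 0.07; 1.49e-05) and Zfp622 rose 1.57-fold (0.65 ± 0.07; 2.32e-05). The rise of Zfp622 fell short of 1.5-fold after cyclic loess (0.55), with its probe sets averaged (0.24) and without _x_at or _s_at probe sets (0.37). In each of these genes the 3 TNC + TLR4i arrays did not overlap the 3 TNC + vehicle arrays.

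The 3 members called higher and 2 called lower made up 3.57% and 2.38% of the 84, beside 9.14% and 8.06% of genes at 8 or more and 4.25% and 4.05% of all genes. By adjusted p alone 34 members rose and 7 fell, beside 31.8% and 19.4% of genes at 8 or more. In 42 members the TNC + TLR4i arrays all lay above the TNC + vehicle arrays and in 10 they all lay below, beside 41.4% and 26.7%. The median difference was 0.18 in the 84 genes, with 68 above 0, and 0.07 in genes at 8 or more. After cyclic loess it was 0.13 in the members, with 62 above 0.

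Of the 33 genes that fell with TNC, 28 were higher with TLR4i than with TNC alone by adjusted p, and 6 of the 7 that rose were lower. The shared arrays bear on both counts, and the same counts over genes at 8 or more were not made. Of those genes 0.642% were higher and 1.18% lower by adjusted p in TNC + TLR4i against untreated. The 28 and the 6 are thus not read as particular to the Zfp genes. The genes past the test with TNC but not here were Zfp207, Zfp326, Zfp574, Zfp646, Zfp84 and Zfp90. Those past it here and not with TNC were Zfp267 (0.26), Zfp277 (0.29), Zfp652 (0.29), Zfp655 (0.28), Zfp746 (0.31) and Zfp955b (0.21), which were higher with TLR4i, and Zfp281 (-0.23), which was lower. In all, 47 members were past the test in one or both comparisons. In 4 of the members not past it here, Zfp84, Zfp451, Zfp644 and Zfp991, a dimmer probe set was past it in the direction of the brightest.

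Among the genes with a listed role, Zfp809 rose by 0.53 ± 0.07 (limma adjusted p = 0.00011), Zfp318 by 0.44, Zfp106 by 0.42, Zfp110 by 0.32, Zfp148 by 0.27 and Zfp217 by 0.22, and Zfp263 fell by 0.56 (limma adjusted p = 0.000227). Zfp217 was the one nearest the threshold (adjusted p = 0.048). Among those without one, Zfp839 rose by 0.56, Zfp677 by 0.54, Zfp362 and Zfp871 by 0.51, and Zfp407, Zfp513 and Zfp275 fell by 0.39, 0.40 and 0.38. Zfp90 differed by 0.29 and Zfp207 by -0.18, not past the test (limma adjusted p = 0.0536 and 0.0991).

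The third comparison set TNC + TLR4i against untreated cells. None of the 84 genes was called and 0 passed the adjusted p of limma in either direction. Before adjustment 2 were higher and 3 lower at p under 0.05. Among the 7014 genes at 8 or more 429 were higher and 501 lower at that p, a larger share than in the members in each direction. Among genes at 8 or more 0.157% were called higher and 0.513% lower, among all genes 0.0605% and 0.198%, and by adjusted p alone 0.642% and 1.18% of genes at 8 or more passed. The 84 differences lay between -0.19 and 0.22, with a median of 0.02, and their 95% intervals reached from -0.40 to 0.38. That none passed does not show that the levels were alike.

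Those 5 genes were Zfp267 (0.22) and Zfp318 (0.16), with higher values in TNC + TLR4i, and Zfp503 (-0.19), Zfp217 (-0.18) and Zfp715 (-0.13), with lower ones. The lowest adjusted p was 0.416, for Zfp267. Its signals were 8.11, 7.92 and 7.85 untreated, 7.91, 8.00 and 7.84 with TNC + vehicle, and 8.12, 8.24 and 8.16 with TNC + TLR4i. Its highest arrays were thus those with the inhibitor, and it reached the mean of 8 only through them. For the genes called with TNC the intervals of the difference from untreated were -0.20 to 0.09 for Zfp800, -0.17 to 0.13 for Zfp131, -0.26 to 0.07 for Zfp703 and -0.13 to 0.19 for Zfp266.

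The members were compared with genes of the same signal range, since dim probe sets are held near a floor by RMA. Between 8 and 8.5 the 38 Zfp genes had a median difference with TNC of -0.18 and all 1308 genes -0.01. Between 8.5 and 9 the medians were -0.22 in 24 Zfp genes and -0.03 in 1336 genes. Between 9 and 10 they were -0.11 in 16 and -0.05 in 2085. In the 6 brightest, at 10 or more, the median was -0.13, beside -0.08 in 2285 genes. With TNC the members' median was the lower one in each range. At 10 or more 2 of the 6 members rose and 2 fell by adjusted p alone, beside 21.3% and 34%. For TLR4i against TNC alone the members' medians were 0.18, 0.24, 0.0675 and 0.17 in the same order of ranges. Those of all genes were 0.04, 0.06, 0.0687 and 0.10, so between 9 and 10 the members did not lie higher.

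The 5 brightest members were Zfp622, Zfp263, Zfp91, Zfp106 and Zfp207, with means from 11.15 to 10.34. Zfp91 read 10.50, 10.46 and 10.46 untreated, 10.31, 10.34 and 10.33 with TNC + vehicle, and 10.42, 10.48 and 10.55 with TNC + TLR4i. Its TNC + vehicle arrays were all lower than the others, by a difference that did not pass the test (-0.14; limma adjusted p = 0.133). Its second brightest probe set, at a mean of 9.96, differed the other way (0.15; limma adjusted p = 0.175). At the other end, the members just inside the level of 8 were Zfp646 (8.01), Zfp219 (8.01) and Zfp280d (8.00), and the genes just outside, below 8 before rounding, were Zfp592 (8.00), Zfp688 (8.00) and Zfp472 (7.98). In 73 members every group mean was at 8 or more and in 11 at least 1 group mean was below it.

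The 249 dimmer Zfp genes were 3 higher and 55 lower with TNC by adjusted p alone, or 1.2% and 22.1%, beside 12.1% and 16% of all genes. All genes take in the 7014 at 8 or more, of which 20.7% and 29.8% passed, so these shares are not matched for level. The median of the 249 was -0.09. With the minimum fold 1 was called higher and 5 lower, or 0.402% and 2.01%, beside 3.74% and 4.05% of all genes. The 5 were Zfp101 (-0.67), Zfp704 (-0.61), Zfp760 (-0.66), Zfp763 (-0.60) and Zfp958 (-0.79), and Zfp811 was higher (0.63). Zfp704 was 0.80 higher with TLR4i than with TNC alone (limma adjusted p = 4.21e-06). The genes left out of the selection by name moved too: Zfp36 rose by 0.42 with TNC, and Zfp36l1 and Zfp36l2 fell by 0.93 and 0.68.

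Several members lie beside another Zfp gene on the chromosome, as zinc finger genes often form clusters. In the RefSeq order of genes (GRCm38.p6) 27 of the 84 had a Zfp gene as a direct neighbour. Of these 27, 1 rose and 13 fell with TNC, with a median of -0.23, and of the other 57, 6 rose and 20 fell, with a median of -0.14, beside 20.7% higher and 29.8% lower of genes at 8 or more. The difference between these medians was not tested. The genes with a Zfp neighbour included Zfp266, Zfp809, Zfp871, Zfp637, Zfp677 and Zfp53, and related genes in a cluster can share probe sequence.

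More than 1 probe set was annotated to 54 members. For the members past the adjusted p with TNC there were 35 further probe sets with a mean of 7 or more, of which 26 differed in the direction of the brightest, 18 of them past the test, and 1 was past it in the other direction, that of Zfp207. For TLR4i against TNC alone the counts were 31 of 34 in the same direction, 18 past the test and 0 opposite. The brightest probe set was of the _x_at type in 5 members and of the _s_at type in 4, both of which can match several transcripts.

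Related zinc finger families were read for comparison. Of 20 Zbtb genes at 8 or more, which pair the fingers with a BTB domain, 3 were called lower with TNC and 0 higher, beside 8.6% and 7.5% of all genes at that level, with a median of -0.21. By the limma adjusted p alone 11 of the 20 fell and 2 rose, beside 29.8% and 20.7%. The 3 called lower were Zbtb4 (-0.90), which binds methylated DNA, Zbtb44 (-0.85) and Zbtb20 (-0.67). These 3 and Zbtb38 (0.64) were called higher with TLR4i than with TNC alone, with differences up to 0.92. That made 4 of the 20 higher and 0 lower, beside 9.14% and 8.06% of genes at 8 or more. Of 4 Zscan and Zkscan genes Zscan26 fell by 0.62 and Zkscan3 by 0.35 (limma adjusted p = 0.00605 for Zkscan3), and 0 rose, also before adjustment. The Zc3h genes have another finger type that binds RNA, and 2 of 10 were called higher and 0 lower (3 rose and 1 fell by the limma adjusted p alone), Zc3h12c (1.38), a relative of the endonuclease Regnase-1, and Zc3h7a (0.61). Both were called lower with TLR4i than with TNC alone (-1.30 and -0.74), 2 of the 10 beside 8.06% of genes at 8 or more. Whether these families differ from the Zfp genes was not tested.

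The KRAB zinc finger proteins act through corepressors. A list of 32 corepressor and general heterochromatin genes was read, of which 30 were measured. Of the 30, 24 lay at 8 or more. With TNC 4 rose and 8 fell by adjusted p alone, beside 20.7% and 29.8% of genes at 8 or more and 12.1% and 16% of all genes, and the list's median was 0.01. Trim28, the corepressor that KRAB domains bind, fell by 0.27 (limma adjusted p = 0.00837), from a mean of 10.95 untreated to 10.68, and was 10.97 with TNC + TLR4i. Setdb1, the H3K9 methyltransferase it recruits, fell by 0.31 (limma adjusted p = 0.00827), and neither reached 1.5-fold.

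The genes of this list that were called with TNC were Daxx and Pphln1, which rose, and Atf7ip, which fell. Among genes at 8 or more 7.5% were called higher and 8.6% lower. Daxx, a histone H3.3 chaperone, went from a mean of 9.59 untreated to 11.21 with TNC + vehicle (1.61; limma adjusted p = 2.13e-07) and was 9.15 with TNC + TLR4i. That last level lay below the untreated one by a difference past the limma adjusted p (-0.44; 0.0239), the only one of the 30 genes in that comparison. Pphln1, a component of the HUSH silencing complex, rose by 0.62, and Atf7ip, a partner of Setdb1, fell by 0.72 (limma adjusted p = 3.88e-05 and 7.44e-06). With TLR4i against TNC alone 8 rose and 5 fell by adjusted p. The shares of genes at 8 or more were 31.8% and 19.4%, and of all genes 17.1% and 11.4%. Daxx (-2.06), Pphln1 (-0.65) and Morc3 (-0.59) were called lower, beside 8.06% of genes at 8 or more and 4.05% of all genes.

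The count of members called lower with TNC rested on few genes and on the arrays in the fit. It was 4 without untreated replicate 3 and 4 without TNC + vehicle replicate 3. The count called higher with TLR4i against TNC alone was 6 without TNC + vehicle replicate 3 and 5 without TNC + TLR4i replicate 2. With the probe sets of each gene averaged, 0 members were called lower with TNC and 0 higher with TLR4i against TNC alone. Zfp703 (-0.31) and Zfp266 (-0.41) then fell short of 1.5-fold with TNC.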

How the data were processed

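The Affymetrix mouse arrays were normalized by the authors with RMA in Chipster, which includes a quantile step, and the deposited values were log2 signals, 1 for each probe set on each array. RMA keeps a floor under dim probe sets, so folds of dim genes are understated, and quantile normalization hides a change of total RNA. Of 45101 probe sets, 64 array controls were left out, and genes were named through the platform annotation where a probe set had 1 gene (34945 probe sets). A further 27 probe sets named a Zfp gene among several and were not used for naming.

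Each pair of groups was fitted on its own 6 arrays by lmFit and eBayes of limma 3.58.1 (R 4.3.3), and two-sided p-values were adjusted over 45037 probe sets by the Benjamini-Hochberg method. The study's methods name a 2-group empirical Bayes test. Calls required an adjusted p under 0.05 and at least 1.5-fold. The fit was tested on simulated data. The number of arrays limits the precision. The members, gene lists and roles were chosen with earlier results of these data known, and the grouping by role after the values of these genes were seen. Genes are named if called in any comparison, if among the 5 brightest or if among the 3 on each side of the level of 8. Genes with a listed role or with disagreeing probe sets are named too. So are called members of the related families and of the corepressor and heterochromatin list. Other members are named to account for all 84, and Trim28, Setdb1 and the dimmer Zfp genes were named after their values were seen.

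The fits were repeated with cyclic loess, with array medians centred, with a replicate block, with all 9 arrays in 1 fit, without dim probe sets, with trend and robust eBayes, with array weights, with averaged probe sets, without _x_at or _s_at probe sets, at member levels of 7 and 9, with other thresholds, with treat (a limma test against 1.5-fold) and without each array in turn. Promoter windows were read with Python 3.11.15. Protein domains were not used here.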

Additional observations from a re-analysis of the deposited data

How the results depend on the processing

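No called result changed direction. Zfp800 and Zfp131 were called with TNC and in TLR4i against TNC alone under every alternative except the minimum fold of 2, which Zfp131 missed in both. Averaging a gene's probe sets left 0 genes called lower with TNC and 0 called higher in TLR4i against TNC alone. A member level of 7 (200 genes) gave 7 called lower and 66 lower by adjusted p alone with TNC, and 7 called higher, 64 higher and 13 lower by adjusted p alone in TLR4i against TNC alone. A level of 9 (22 genes) gave 1 called lower and 4 higher and 8 lower by adjusted p alone with TNC, and 8 higher and 4 lower by adjusted p alone with TLR4i. With no minimum fold 7 were higher and 33 lower with TNC, and 34 higher and 7 lower with TLR4i against TNC alone, and at a minimum fold of 2 these were 1, 0, 0 and 1. At an adjusted p under 0.01, 22 were higher by adjusted p alone with TLR4i. Treat left 1 called lower with TNC and 0 called higher with TLR4i. Leaving out 1 array at a time gave 2 to 4 called lower with TNC and 3 to 6 called higher and 2 to 3 called lower with TLR4i, and 24 to 31 lower with TNC by adjusted p alone. Zfp622 in TLR4i against TNC alone lost the fold under cyclic loess (0.55), with averaged probe sets (0.24) and without _x_at and _s_at probe sets (0.37). Beyond the construction of each alternative, the cause was not tested. The number of arrays and the signal floor limit small differences.

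With the replicate block 2 genes were called higher and 2 lower with TNC, 3 higher and 2 lower in TLR4i against TNC alone, and 0 in TNC + TLR4i against untreated, as without it, and 32 in place of 33 were lower with TNC by adjusted p alone. Deviations of same-numbered arrays correlated between -0.10 and 0.14 across probe sets, so the numbers were not taken to pair the arrays.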
